A study of Mus musculus with 24 samples.

Results

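The genes described here are 9 cathepsins (Ctsa, Ctsb, Ctsc, Ctsd, Ctsh, Ctsk, Ctsl, Ctss and Ctsz) and Cst3, which encodes cystatin C, in macrophages sorted from mouse colon tumors. They were taken by name: every row of the deposited count table whose mouse gene ID maps to 1 of these 10 symbols, in all 24 libraries. All 10 were found among the 55487 rows. In these cells 9 of the 10 were abundant, and Ctsk lay close to the level of genes that macrophages do not use.

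Cathepsins are proteases of the endosome and lysosome. Most are cysteine proteases of the papain family (Ctsb, Ctsc, Ctsh, Ctsk, Ctsl, Ctss, Ctsz), Ctsd is an aspartic protease, and Ctsa is a serine carboxypeptidase that also protects other lysosomal enzymes. They are made as inactive precursors, tagged with mannose 6-phosphate, carried to the lysosome and activated there by cleavage. In macrophages they degrade engulfed material and cut the invariant chain off MHC class II molecules, and tumor-associated macrophages can release them to act on the matrix. Cystatin C is a small secreted protein that binds cysteine cathepsins in their active site and blocks them, and does not inhibit Ctsd or Ctsa.

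Macrophages (CD45+ CD11b+ F4/80+ cells) were sorted from tumors that MC38 cells, a colon carcinoma line of the mouse, had formed after orthotopic implantation into C57BL/6J animals. The MC38 cells carried Apc, the Wnt pathway tumor suppressor (APC-WT, 2 tumors), or had lost it (APC-KO, 2 tumors), and the title of the series places the work in a study of the enzyme Tdo2 in colorectal cancer with mutated Apc. The macrophages belong to the host, whose own Apc was not targeted, so the level of Apc checks no label. The 6 libraries of a tumor are replicates of 1 sample per the labels, prepared from total RNA with an ultra low input Nextera XT protocol. The age and sex of the mice, how Apc was removed and whether each line was 1 clone are not given in the sources used here.

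Depth and composition differed between the genotypes. Total counts per library were 74972634 to 93568353 in APC-WT tumor 1, 28018638 to 46837543 in APC-WT tumor 2, 8895722 to 19328572 in APC-KO tumor 1 and 13464061 to 17196820 in APC-KO tumor 2. Expressed genes (3941 genes with a mean CPM, counts scaled to a fixed library total, of at least 10 and at least 10 times the background) held 81.7% and 73.6% of the counts in the APC-WT tumors and 33.2% and 31.8% in the APC-KO tumors. Loci related to a satellite repeat held 1.32% and 7.08% in APC-WT against 37.9% and 38.5% in APC-KO. The background, measured on olfactory and vomeronasal receptor genes, was higher too, at 0.808% and 0.823% of counts in APC-KO against 0.0345% and 0.232% in APC-WT. All 12 macrophage markers counted as expressed, by a limit set on means over the 4 tumors. Their summed level was between 25563 and 32806 scaled CPM over the 24 libraries. Single tumors could fall under 10 times background: Mertk had 69.8 scaled CPM in APC-KO tumor 1, where 17.0 was expected from background. With the length offset described below, 6 of the 12 were lower in APC-KO, where 24.5% of all expressed genes were lower. Without that offset 4 of the 12 were lower, where 30.7% of all expressed genes were. The gate gene Itgam (log2 change -2.05 ± 0.15) and Adgre1, which encodes F4/80 (-1.72 ± 0.15), were among the 6. The part of these differences in the results below was not tested beyond the alternatives given.

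Promoters of the members that the results turn on, and of those with a lysosomal motif, are shown first. The windows come from RefSeq (GRCm38.p6), which had 9 windows for 8 of the 10 members (not Ctsb or Ctsh), each running from 250 bases before the annotated start to 50 after it. 5 motifs were searched on both strands: the E-box CACGTG, the longer TCACGTGA that contains it and is the core of the CLEAR element read by the lysosomal regulator TFEB, the STAT-type TTCNNNGAA, the IRF-type GAAANNGAA and the PU.1-type GAGGAAGT. Of all 32851 promoter windows of this length, 7.15% held the E-box, 0.974% TCACGTGA, 8.298% TTCNNNGAA, 8.56% GAAANNGAA and 3.202% GAGGAAGT. Capitals mark the matches, and the first 275 bases of each window are printed 5′ to 3′ on the gene's strand. Ctsc (chr7:88277835-88278109, plus strand) and Ctss (chr3:95526536-95526810, plus strand) are shown because both fell in APC-KO, Ctsd (chr7:142387803-142388077, minus strand) and Ctsa (chr2:164833523-164833797, plus strand, the second of its 2 windows) because they hold TCACGTGA and did not pass the main test.
Ctsc: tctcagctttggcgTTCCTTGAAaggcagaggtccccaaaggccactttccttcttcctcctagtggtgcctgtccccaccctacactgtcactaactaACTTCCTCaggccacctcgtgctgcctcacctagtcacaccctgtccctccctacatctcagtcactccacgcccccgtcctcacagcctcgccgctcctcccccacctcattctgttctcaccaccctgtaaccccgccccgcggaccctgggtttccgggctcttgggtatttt
Ctss: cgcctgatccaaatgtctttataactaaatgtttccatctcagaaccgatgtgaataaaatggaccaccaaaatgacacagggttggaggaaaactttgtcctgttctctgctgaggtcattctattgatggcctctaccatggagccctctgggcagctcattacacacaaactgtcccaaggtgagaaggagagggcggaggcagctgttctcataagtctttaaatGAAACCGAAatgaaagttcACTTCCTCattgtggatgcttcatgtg
Ctsd: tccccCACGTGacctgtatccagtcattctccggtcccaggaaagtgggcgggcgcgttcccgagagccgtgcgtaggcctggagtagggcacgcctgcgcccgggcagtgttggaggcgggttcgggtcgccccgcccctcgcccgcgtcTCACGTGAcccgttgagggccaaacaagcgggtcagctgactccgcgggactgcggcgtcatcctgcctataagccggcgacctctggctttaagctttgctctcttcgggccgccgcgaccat
Ctsa: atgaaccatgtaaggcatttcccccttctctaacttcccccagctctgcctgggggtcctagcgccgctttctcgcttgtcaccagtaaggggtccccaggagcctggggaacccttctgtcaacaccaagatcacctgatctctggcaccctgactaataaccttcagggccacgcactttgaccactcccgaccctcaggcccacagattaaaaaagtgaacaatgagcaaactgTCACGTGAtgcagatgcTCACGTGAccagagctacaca

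The Ctsc window held TTCNNNGAA at -236 and GAGGAAGT, on the minus strand, at -151, counted from the annotated start to the first base of the match. In the Ctss window GAAANNGAA lay at -21 and GAGGAAGT, on the minus strand, at -2. TCACGTGA was found at -99 in the Ctsd window, which had a further E-box at -245, and at -13 and 4 in the Ctsa window. The Ctsl window held 1 E-box at -236. Neither the first Ctsa window nor those of Ctsk, Ctsz and Cst3 held any of these letters. A match describes the sequence only, and no binding was measured.

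Levels are given as scaled CPM, that is CPM taken on the expressed-gene total after TMM scaling. This scale compares a gene between tumors. To compare genes with each other, the level was divided by the length of the best supported coding transcript in kb. Per kb, Ctss was the most abundant of the 10 in every tumor (5189 ± 180 per kb in APC-WT tumor 1, 4078 ± 109 in APC-WT tumor 2, 2774 ± 55.2 in APC-KO tumor 1 and 3194 ± 67.7 in APC-KO tumor 2; SD, n = 6 libraries). Ctsc came next after Ctss in both APC-WT tumors (3150 ± 69.9 and 3185 ± 90.4 per kb) but behind 4 other members in APC-KO tumor 1 and 5 in APC-KO tumor 2 (953 ± 37.4 and 787 ± 38.2). Cst3 stood behind 5 members in both APC-WT tumors (1029 ± 35.4 and 749 ± 14.8 per kb) and behind Ctss alone in both APC-KO tumors (1639 ± 35.0 and 1736 ± 49.4). Dividing by length does not take out the trend of the genotype change on transcript length described below. That trend was 1.26 on the log2 scale for Cst3 and -0.36 for Ctsc, so these shifts in rank between genotypes include it. In APC-WT tumor 2 Ctsz (1071 ± 37.8 per kb) and Ctsd (1039 ± 42.0) could not be ordered, since they differed by less than their SD. The same held for Ctsh (502 ± 32.6) and Ctsl (506 ± 20.8) in APC-KO tumor 1.

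**Figure D1:**
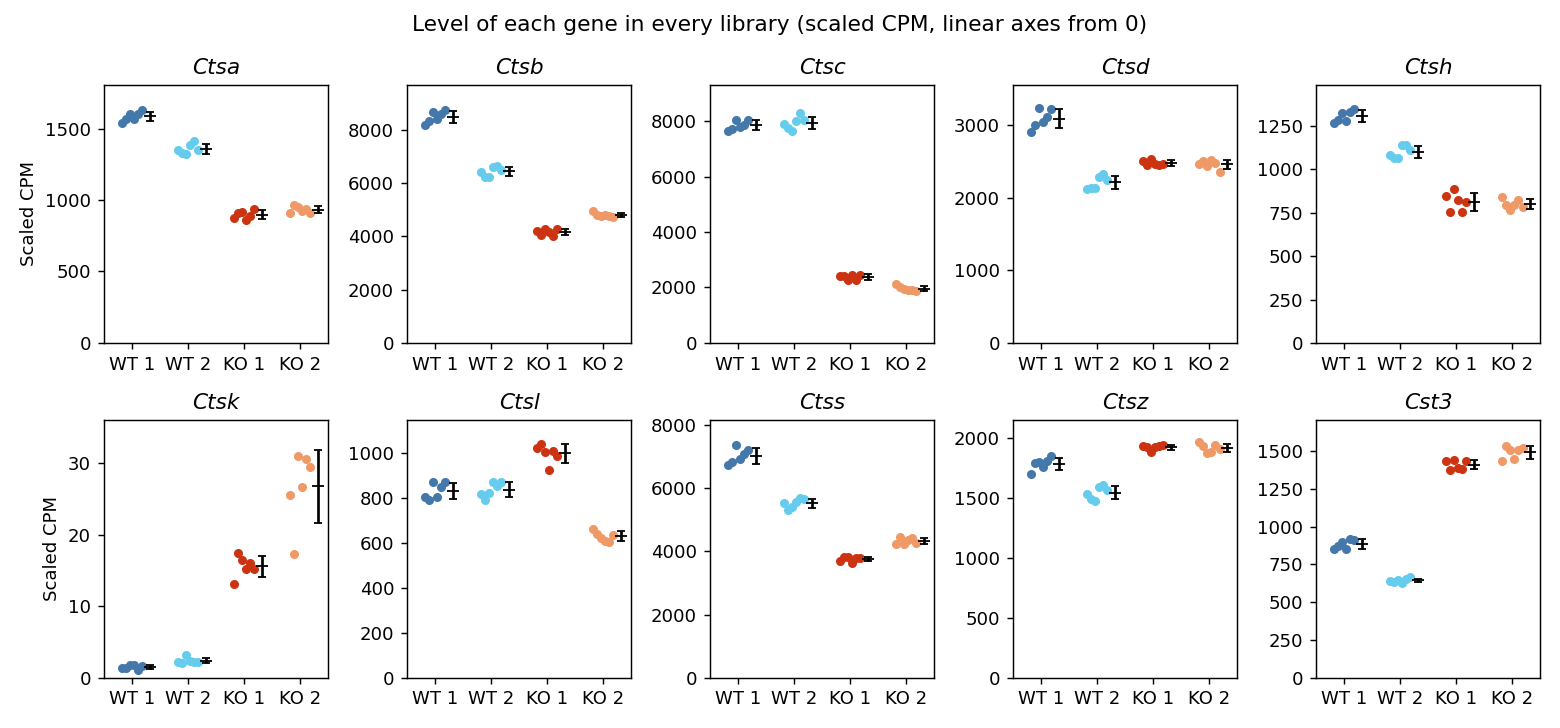
Level of each of the 10 genes in all 24 libraries, in scaled CPM on linear axes from 0, by tumor (6 points each; black mark and bar, mean ± SD). Ctsc, Ctsb, Ctsa, Ctsh and Ctss lay lower in every APC-KO library than in any APC-WT library, Cst3, Ctsz and the scarce Ctsk lay higher, and Ctsd and Ctsl overlapped between genotypes.

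Taken as a group, the 10 genes made up 3.00% of the expressed-gene counts in APC-WT tumor 1 and 2.62% in APC-WT tumor 2, against 1.96% in APC-KO tumor 1 and 2.12% in APC-KO tumor 2. On the scaled CPM level, all 12 APC-KO libraries lay below all 12 APC-WT libraries for 5 of the 10 members, where 28.4% of expressed genes did so, and above them for 3 (Cst3, Ctsz and Ctsk, the last under the limit for expressed genes), where 28.1% did. In bulk RNA, fewer cells of a type and less RNA per cell cannot be told apart.

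The genotype comparison asks which of these genes differ in macrophages between tumors with and without Apc. Ctsc, the dipeptidyl peptidase that activates granule serine proteases, and Ctss, the invariant chain protease of antigen-presenting cells, were lower in APC-KO macrophages. Among the other 7 members tested none passed the threshold in the main test. That test was edgeR's quasi-likelihood test on counts summed per tumor (2 against 2), with an offset for transcript length and Benjamini-Hochberg adjustment at 0.05 over the 3941 expressed genes, so 2 members were lower and 0 higher, and the count at an unadjusted p under 0.05, in DESeq2 and in limma-voom was also 2 lower and 0 higher. The background is high, since 24.5% of all expressed genes were called lower and 24.9% higher in the same fit. The members' median change was -0.32 on the log2 scale, against -0.03 over all expressed genes. With 2 tumors a side, an exact permutation test of a single value cannot give a p below 0.33, so every call here rests on a spread shared across genes.

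The offset was used because the change between genotypes followed transcript length. Without it, the median change was 1.52 on the log2 scale in the shortest of 20 length bins (median longest transcript 638 bp) and -0.47 in the longest bin (6740 bp). This bears on each member by its length. At the 860 bp of Cst3 the trend alone amounted to 1.26, at the 1355 bp of Ctss to 0.69 and at the 4743 bp of Ctsb to -0.52. Without the offset 4 members were lower (Ctsa, Ctsb, Ctsc and Ctsh) and 1 higher (Cst3), where 30.7% of expressed genes were lower and 32.7% higher, and their median change was -0.56. With the length of the best supported coding transcript in the offset, 3 members were lower (Ctsc, Ctsh and Ctss) and 0 higher, where 22.6% and 23.3% of expressed genes were called. With the total exonic length in the offset, the members called were Ctsc, Ctss and Ctsz, all lower, where 26.4% of expressed genes were lower and 26.7% higher. Ctsc was the only member called under all 4 of these offset choices. With the limit for expressed genes lowered to 5 CPM and 5 times background (6998 genes), 6 members were called and all were lower (Ctsa, Ctsb, Ctsc, Ctsh, Ctss and Ctsz), where 30.1% of genes were lower and 27.3% higher. With the expected background subtracted before the fit, the length-adjusted changes of Ctsa, Ctsb and Ctsd turned to 0.039, 0.13 and 0.048, none of which passed.

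**Figure D2:**
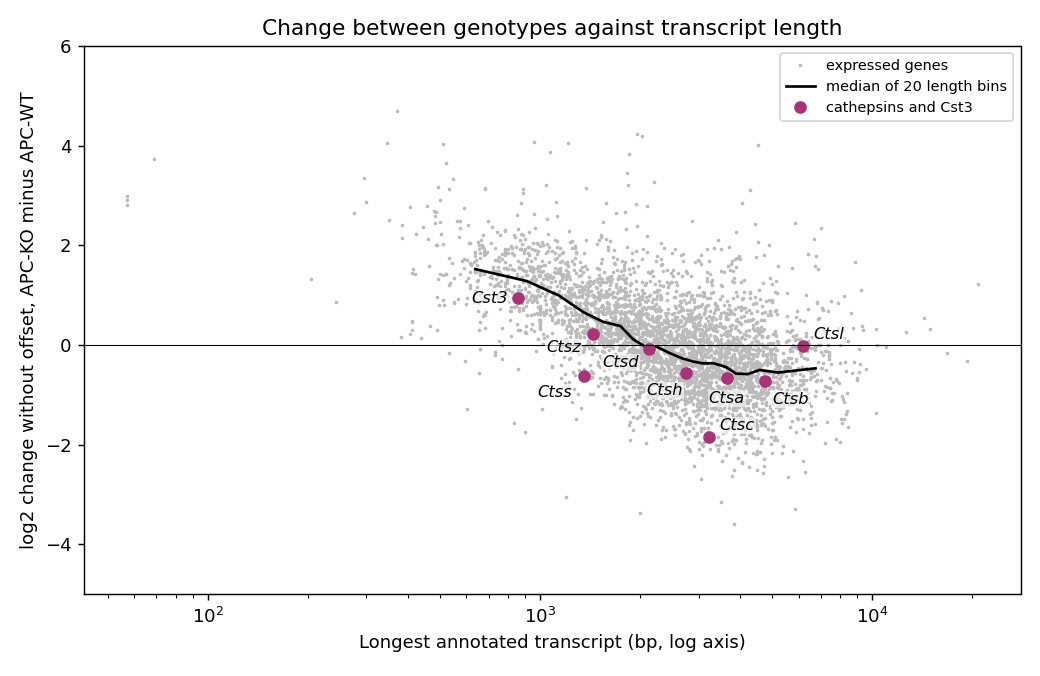
log2 change between genotypes without the offset (APC-KO minus APC-WT) against the longest annotated transcript (bp, log axis) for the 3941 expressed genes (grey, 1 outside the axis), with the median of 20 length bins (line). Cst3 and Ctsz are above 0 and near or below the line, while Ctss and Ctsc are far below it.

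Cst3 (ENSMUSG00000027447; GRCm38 chr2:148871722-148875692, minus strand), the inhibitor, read higher in APC-KO on the scaled CPM level. It ranged from 851 to 922 scaled CPM (median 885) in APC-WT tumor 1 and from 629 to 664 (median 643) in APC-WT tumor 2. In APC-KO it ranged from 1377 to 1440 (median 1410) in tumor 1 and from 1433 to 1537 (median 1508) in tumor 2. The genotypes did not overlap on this level, and APC-WT tumor 2 was the lowest of the 4. The test without the offset gave a log2 change of 0.94 ± 0.21 (SE; adjusted p = 0.0157 in edgeR). After the offset the change was -0.32 ± 0.22 (adjusted p = 0.265), so the direction turned: Cst3, the shortest member, stood higher in counts but not relative to other genes of its length. In single pairs of tumors the length-adjusted change was -0.61 and -0.47 for APC-KO tumors 1 and 2 against APC-WT tumor 1, and -0.13 and 0.0070 against APC-WT tumor 2. The first 3 of these passed in the 24-library fit (edgeR, adjusted p = 3.79e-18, 6.55e-16 and 8.2e-06) and the last did not (adjusted p = 0.777).

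Ctsc (ENSMUSG00000030560; GRCm38 chr7:88278085-88310888, plus strand) was lower in APC-KO under every offset choice. It ranged from 7637 to 8057 scaled CPM (median 7831) in APC-WT tumor 1 and from 7660 to 8296 (median 7950) in APC-WT tumor 2. The APC-KO ranges were 2257 to 2468 (median 2410) in tumor 1 and 1877 to 2135 (median 1929) in tumor 2. The groups lay far apart, and the 2 APC-WT tumors overlapped. Ctsc fell by 1.49 on the log2 scale with the offset (SE 0.18, adjusted p = 0.00487, 2.80-fold lower) and by 1.85 without it (SE 0.19, adjusted p = 0.00171, 3.60-fold lower). The length-adjusted change was between -1.35 and -1.64 in the 4 pairs of 1 APC-KO and 1 APC-WT tumor. The serine protease genes that Ctsc protein activates in granules (Elane, Prtn3, Ctsg, Gzma, Gzmb and 5 others) gave no test, since 0 of 10 reached the limit for expressed genes. Their summed level was 9.35 to 14.0 and 27.2 to 31.0 scaled CPM in the APC-WT tumors, where background alone was expected to give 0.967 and 6.96. In the APC-KO tumors it was 95.0 to 106 and 115 to 133, where 49.4 and 49.7 were expected.

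Ctss (ENSMUSG00000038642; GRCm38 chr3:95526786-95556403, plus strand) was lower in APC-KO in every fit, but its size and its call depended on length. It ranged from 6746 to 7383 scaled CPM (median 7008) in APC-WT tumor 1 and from 5299 to 5687 (median 5556) in APC-WT tumor 2. It ranged from 3631 to 3820 (median 3790) in APC-KO tumor 1 and from 4239 to 4448 (median 4308) in APC-KO tumor 2. No 2 tumors overlapped, and both APC-KO tumors were below both APC-WT tumors. The log2 change was -1.31 ± 0.23 with the offset (adjusted p = 0.0114, 2.47-fold lower) and -0.62 ± 0.20 without it (adjusted p = 0.0503). Without APC-KO tumor 1 the length-adjusted change was -1.19 (adjusted p = 0.0656), so the call was lost without that tumor; without APC-KO tumor 2 it was -1.44 (adjusted p = 0.0499).

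Ctsb (ENSMUSG00000021939; GRCm38 chr14:63122462-63145923, plus strand), the broad lysosomal endopeptidase, measured 8472 ± 214 and 6428 ± 177 in the first and second APC-WT tumor and 4156 ± 119 and 4794 ± 74.2 in the first and second APC-KO tumor (SD, n = 6 libraries). Per kb it stood behind 2 members in both APC-WT tumors, behind 5 in APC-KO tumor 1 and behind 4 in APC-KO tumor 2. These ranks are not adjusted for the length trend between genotypes. The genotypes did not overlap on the scaled CPM level. Ctsb passed the test without the offset (-0.72 ± 0.21, adjusted p = 0.0384) but not with it (-0.19 ± 0.20, adjusted p = 0.451). The length-adjusted change had both signs among the 4 pairs of tumors, from -0.47 to 0.072. Ctsb shares 774 bases of exon with the oppositely transcribed Fdft1, whose own level was 20.1 to 44.6 scaled CPM over the 4 tumors, and whether the counting used strand is not given in the sources used here.

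Ctsl and Ctsh showed how far the transcript chosen for the offset can move a value. Ctsl (ENSMUSG00000021477; GRCm38 chr13:64359337-64370890, minus strand), an endopeptidase with a wide range of substrates, measured 831 ± 36.2 scaled CPM in APC-WT tumor 1, 836 ± 33.4 in APC-WT tumor 2, 997 ± 41.1 in APC-KO tumor 1 and 628 ± 22.3 in APC-KO tumor 2. The APC-KO tumors thus lay on opposite sides of both APC-WT tumors. Its change was 0.46 ± 0.26 (adjusted p = 0.192) with its longest transcript of 6168 bp, -0.047 with its best supported transcript of 1971 bp and -0.017 without an offset. Ctsh (ENSMUSG00000032359; GRCm38 chr9:90054152-90076089, plus strand), an aminopeptidase, had 1306 ± 33.3 and 1100 ± 34.7 scaled CPM in APC-WT and 812 ± 52.7 and 802 ± 27.7 in APC-KO, with no overlap. Its change was -0.32 ± 0.16 (adjusted p = 0.158) with the longest transcript (2743 bp), -0.89 (adjusted p = 0.0151) with the best supported transcript (1617 bp) and -0.56 ± 0.16 (adjusted p = 0.0344) with no offset. The sign for Ctsh held in these 3 fits, and the call did not.

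Ctsz (ENSMUSG00000016256; GRCm38 chr2:174427493-174439039, minus strand), a carboxypeptidase, read slightly higher in APC-KO before the offset. Its levels were 1785 ± 50.4 and 1543 ± 54.5 scaled CPM in the first and second APC-WT tumor, and 1924 ± 21.1 and 1919 ± 36.3 in the first and second APC-KO tumor. The APC-KO libraries lay above the APC-WT libraries by a small margin. Neither fit passed, at 0.23 ± 0.16 without the offset (adjusted p = 0.265) and -0.37 ± 0.17 with it (adjusted p = 0.137), and the signs differ. Ctsz was called lower with the total exonic length in the offset (-0.59 ± 0.17, adjusted p = 0.0417) and at the lower limit for expressed genes (-0.72 ± 0.20, adjusted p = 0.0325).

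Ctsd (ENSMUSG00000007891; GRCm38 chr7:142375911-142388038, minus strand), the aspartic protease, showed little change between genotypes. It had 3086 ± 130 and 2210 ± 89.3 scaled CPM in the first and second APC-WT tumor, and 2476 ± 37.2 and 2461 ± 58.9 in the first and second APC-KO tumor. Both APC-KO tumors lay between the APC-WT tumors. Its change was -0.13 ± 0.22 with the offset (adjusted p = 0.644) and -0.083 ± 0.22 without (adjusted p = 0.755), and its length of 2127 bp lies where the length trend is near 0 (0.044). Ctsa (ENSMUSG00000017760; GRCm38 chr2:164832873-164841032, plus strand), the serine carboxypeptidase, had 1586 ± 33.1 and 1359 ± 36.8 scaled CPM in APC-WT and 898 ± 30.1 and 934 ± 21.7 in APC-KO, with no overlap. Its change was -0.23 ± 0.16 with the offset (adjusted p = 0.269) and -0.67 ± 0.16 without (adjusted p = 0.0203). Ctsa shares 495 bases of exon with the oppositely transcribed Pltp, which measured 364 and 237 scaled CPM in APC-WT against 138 and 137 in APC-KO; the part of such shared reads was not tested. The promoters of Ctsd and Ctsa shown above both hold TCACGTGA, and neither gene passed the main test.

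**Figure D3:**
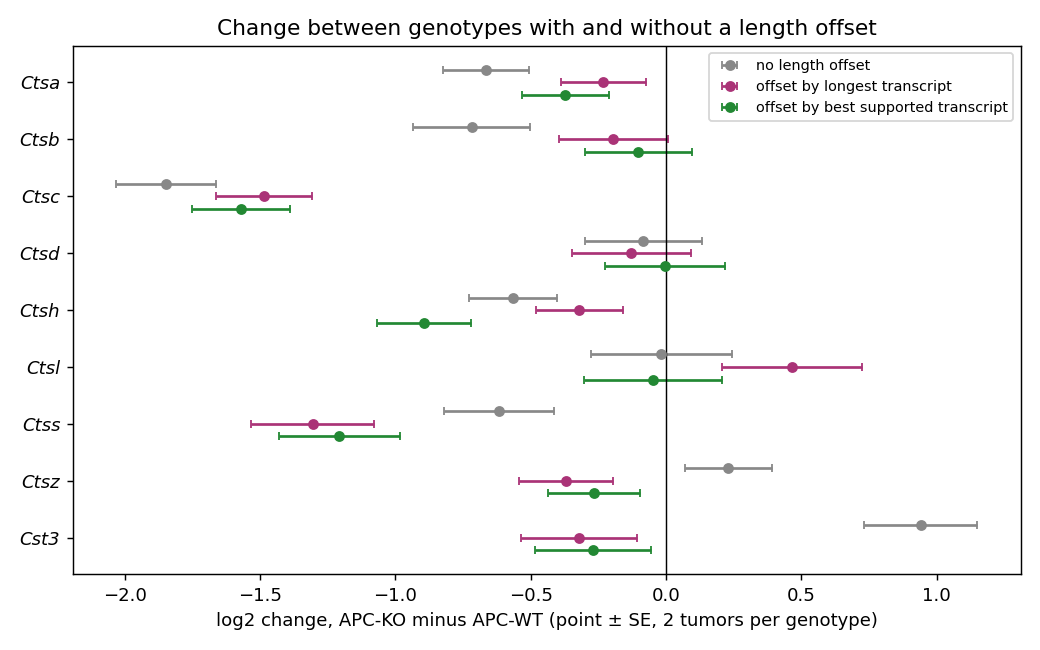
log2 change between genotypes (APC-KO minus APC-WT, point ± SE, 2 tumors per genotype) of the 9 members tested, with no offset, with the offset by longest transcript and with the offset by best supported transcript. Ctsc stays between -1.49 and -1.85, Ctss is below 0 in all 3 and Cst3 and Ctsz change side.

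Ctsk (ENSMUSG00000028111; GRCm38 chr3:95499256-95509362, plus strand), the collagen-degrading cathepsin of osteoclasts, lies next to Ctss on chromosome 3 but was barely present. Its sums over 6 libraries were 548 counts in APC-WT tumor 1, 369 in APC-WT tumor 2, 414 in APC-KO tumor 1 and 848 in APC-KO tumor 2. On the scaled CPM level it ranged from 1.06 to 1.80 (median 1.54) and from 2.09 to 3.12 (median 2.23) in the APC-WT tumors, and from 13.2 to 17.5 (median 15.7) and from 17.2 to 31.0 (median 28.0) in the APC-KO tumors. The higher APC-KO levels stand beside a higher background expected for a gene of its length, 0.116 and 0.835 in APC-WT and 5.93 and 5.97 in APC-KO, so that Ctsk stood at 12.8, 2.83, 2.63 and 4.48 times that background. In a fit of all genes with the expected background subtracted, its change was 3.39 ± 0.53 (adjusted p = 0.00767), but the median of all 37143 genes in that fit was 3.47 and 61.5% of them were called higher. The value for Ctsk is close to that median and gives no result about Ctsk. Of 8 osteoclast markers, 4 were expressed, of which 3 were lower in APC-KO with the offset and 4 without it, where 24.5% and 30.7% of all expressed genes were lower, with summed levels of 744 to 1156 scaled CPM in APC-WT and 445 to 579 in APC-KO. The background expected for these sums was 2.46 and 17.7 in APC-WT, and 125 and 126 in APC-KO.

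**Figure D4:**
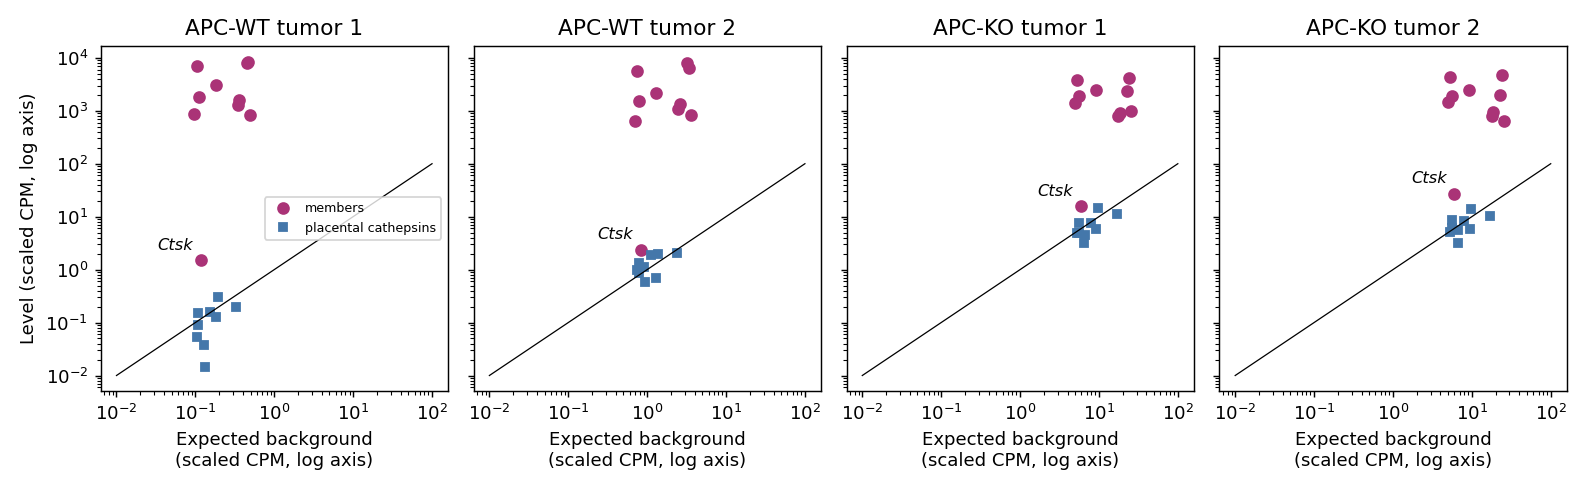
Mean level of the 10 members and of 9 placental cathepsin genes against the background expected for each gene's exonic length, in scaled CPM on log axes, by tumor (line, equality). 9 members lie far above the line, Ctsk lies nearest to it, at 2.63 to 12.8 times the background, and the placental cathepsins scatter around it.

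The placental cathepsins, a rodent gene cluster related to Ctsl that is used in the placenta, served as cathepsin genes these cells should not use. Their summed level followed the background: 1.02 to 1.32 scaled CPM in APC-WT tumor 1 (1.44 expected), 11.2 to 12.3 in APC-WT tumor 2 (10.4 expected), 61.7 to 71.9 in APC-KO tumor 1 (73.6 expected) and 59.8 to 73.6 in APC-KO tumor 2 (74.1 expected). Against such levels the 9 abundant members stood 24.5 times or more above their own expected background in every tumor. Of the other cathepsin genes (Ctse, Ctsf, Ctsg, Ctso and Ctsw), Ctso alone was expressed, at 92.9 and 79.6 scaled CPM in APC-WT and 64.4 and 69.2 in APC-KO, and it did not pass (log2 change 0.054 ± 0.13 with the offset, adjusted p = 0.749).

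The balance of proteases to inhibitor was read within each library as a ratio of counts, which needs no scaling between libraries. Per count of Cst3, there were 9.58 counts of Ctsb in APC-WT tumor 1 and 9.94 in APC-WT tumor 2, against 2.94 in APC-KO tumor 1 and 3.21 in APC-KO tumor 2. In the same order, Ctsc gave 8.88 and 12.3 against 1.69 and 1.31. Ctss gave 7.95 and 8.55 against 2.67 and 2.90. For all 8 abundant cathepsins the ratio of counts to Cst3 was lower in both APC-KO tumors than in both APC-WT tumors. It passed below 1 for Ctsa (1.79 and 2.10 against 0.638 and 0.6248) and for Ctsh (1.48 and 1.70 against 0.571 and 0.536). For Ctsl it was above 1 in APC-WT tumor 2 only (0.941 and 1.29 against 0.708 and 0.420). The members are unequal in length, Cst3 is the shortest, and the length trend (1.26 for Cst3, 0.69 or less for each cathepsin) by itself moves each of these ratios down in APC-KO. With the offset, the log2 change of a cathepsin minus that of Cst3 was -1.17 for Ctsc and -0.98 for Ctss. For the other 6 it was near 0 or above it: -0.050 for Ctsz, 0.00025 for Ctsh, 0.089 for Ctsa, 0.13 for Ctsb, 0.19 for Ctsd and 0.78 for Ctsl. These values use the longest transcript. With the best supported transcript in the offset, Ctsh moved to -0.62, Ctsa to -0.10 and Ctsl to 0.22. Ctsz was then 0.0045, Ctsb 0.17 and Ctsd 0.27, while Ctsc was -1.30 and Ctss -0.94. No test was made on these ratios. The counts of Ctss and Ctsb kept nearly the same proportion, 0.831, 0.860, 0.908 and 0.903 counts of Ctss per count of Ctsb in the 4 tumors in the same order, while Ctsc per count of Ctsb went 0.927 and 1.24 against 0.572 and 0.409. The length trends of Ctss and Ctsb are opposite, and with the offset the change of Ctss minus that of Ctsb was -1.11, against 0.10 without it. For Ctsc against Ctsb it was -1.29 with and -1.13 without the offset.

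**Figure D5:**
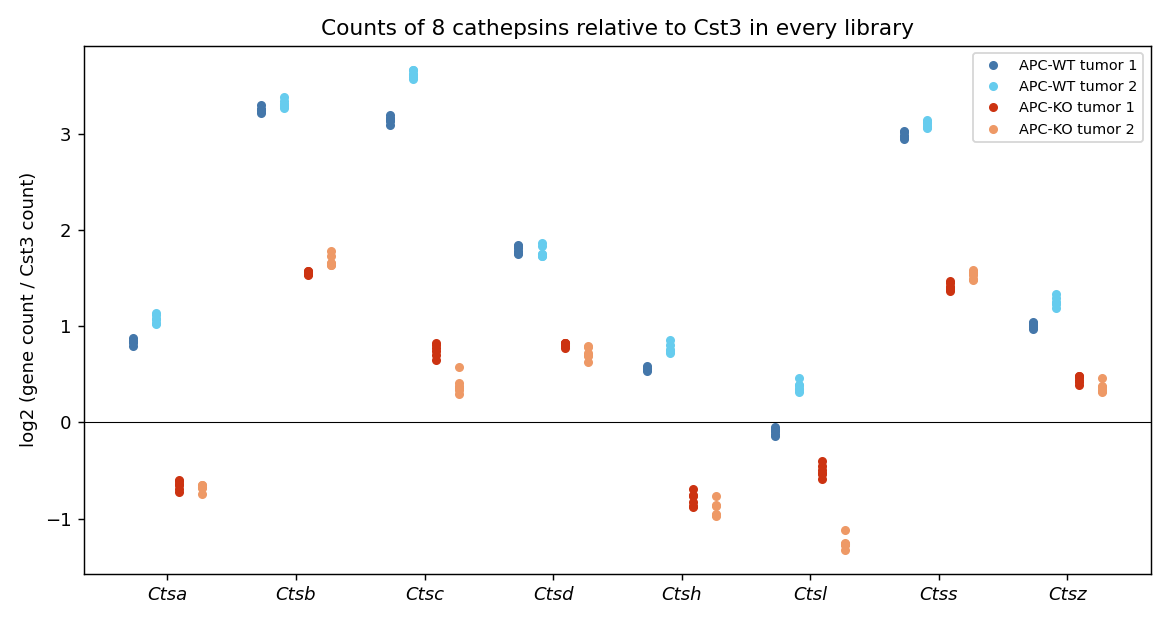
log2 ratio of the count of each of 8 cathepsins to the count of Cst3 in each of the 24 libraries, by tumor. In every gene the APC-KO points lie below the APC-WT points. Ctsa and Ctsh cross 0 (equal counts) between genotypes, and Ctsl lies above 0 in APC-WT tumor 2 only. The ratios are not adjusted for length.

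Tumors of the same genotype also differed, which sets the scale for the genotype comparison. These tests compare libraries of 2 tumors (edgeR on the 24 libraries, no offset), so the p-values measure the spread between libraries of a tumor, which may be technical, and not between animals. In APC-WT, 7 of the 9 members were lower in tumor 2 than in tumor 1 and 0 were higher (0 also at an unadjusted p under 0.05 and in DESeq2), where 27.4% of expressed genes were lower and 19.5% higher. The largest of these differences were Ctsd (-0.48 on the log2 scale, adjusted p = 2.73e-13), Cst3 (-0.46, adjusted p = 1.32e-13) and Ctsb (-0.40, adjusted p = 5.8e-14). Ctsc (0.02, adjusted p = 0.692) and Ctsl (0.01, adjusted p = 0.866) did not pass. In APC-KO, 3 members were higher in tumor 2 (Ctsb, Ctss and Cst3, by 0.21, 0.20 and 0.08) and 2 lower (Ctsl, -0.67, and Ctsc, -0.28), where 15.2% and 18.1% of expressed genes were called. Among the 9 members tested, Ctsl in the APC-KO tumors was the largest difference within a genotype, 1.59-fold, and larger than its change between genotypes.

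Each APC-KO tumor was therefore also set against each APC-WT tumor in the 24-library fit. With the offset, 5 members passed as lower in all 4 pairs (Ctsa, Ctsc, Ctsh, Ctss and Ctsz) and 0 as higher (0 also at an unadjusted p under 0.05 and in DESeq2), where 31.2% of expressed genes were lower and 29.5% higher. In Ctsa the 4 changes were -0.37, -0.32, -0.16 and -0.10, and in Ctsz they were between -0.21 and -0.53. Without the offset, 5 members were lower (Ctsa, Ctsb, Ctsc, Ctsh and Ctss) and 2 higher (Ctsz and Cst3), where 34.4% and 34.8% of expressed genes were called. Ctsz was thus called in opposite directions by the 2 versions of this fit. The 4 pairs share tumors and are not independent.

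A list of 12 genes held genes that sort and mature lysosomal enzymes, and also lysosomal membrane proteins and other lysosomal proteins. Of the 12, 10 were expressed and 6 of these fell in APC-KO, with and without the offset. The 6 include the membrane protein genes Lamp1 and Lamp2. None rose (0 also at an unadjusted p under 0.05, in DESeq2 and in limma-voom), and the median change with the offset was -0.69 against -0.03 over all expressed genes. Among them, Lamp2, a lysosomal membrane protein, had a log2 change of -1.25 ± 0.14 (adjusted p = 0.00443), and M6pr, a mannose 6-phosphate receptor that carries cathepsins to the lysosome, -1.08 ± 0.13 (adjusted p = 0.00498). Lgmn, the asparaginyl endopeptidase that matures several cathepsins, measured 4150 and 3501 scaled CPM in APC-WT and 1725 and 1945 in APC-KO (-1.18 ± 0.18, adjusted p = 0.0084). Lamp1, the companion membrane protein of Lamp2, passed on the tumor sums (-0.74 ± 0.15, adjusted p = 0.0174), but its libraries stood far apart within a tumor. It ranged from 373 to 1819 scaled CPM and from 298 to 1577 in the APC-WT tumors and from 317 to 794 and from 393 to 848 in the APC-KO tumors, so the genotypes overlapped. In the 24-library fit with the offset, Lamp1 passed in none of the 4 pairs of tumors (adjusted p = 0.0747 to 0.187). In the fit on tumor sums, 24.5% of all expressed genes were lower and 24.9% higher with the offset. The shares without the offset were 30.7% and 32.7%. The list was made with earlier results of these data known.

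Ctss cuts the invariant chain of MHC class II. All 8 genes of a list of class II chains and their processing were expressed. With the offset 6 fell and 0 rose (0 also at an unadjusted p under 0.05, in DESeq2 and in limma-voom; median -0.91), where 24.5% of all expressed genes were lower and 24.9% higher, and without it 5 fell and 1 rose, where 30.7% and 32.7% did. Cd74, the invariant chain itself, measured 21811 and 26013 scaled CPM in APC-WT and 13055 and 10934 in APC-KO (log2 change -1.60 ± 0.19, adjusted p = 0.00464). H2-Ab1 changed by -1.69 ± 0.21 (adjusted p = 0.00512), H2-DMb1, a chain of the peptide exchange factor, by -1.22 ± 0.15 (adjusted p = 0.00526) and H2-Eb1 by -1.15 ± 0.20 (adjusted p = 0.0118). The gene that rose without the offset was Ifi30, the lysosomal thiol reductase (0.64, adjusted p = 0.0304), named here after its value was seen. The part of cell composition in these values was not tested.

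The remaining lists gave few calls. Of 17 cystatin and stefin genes other than Cst3 in the table, 1 was expressed: Cstb, the intracellular inhibitor stefin B, at 105 and 114 scaled CPM in APC-WT and 245 and 166 in APC-KO. Like Cst3 it turned with the offset, but it passed both ways (0.95, adjusted p = 0.0186, without and -0.67 ± 0.19, adjusted p = 0.0421, with). Of 7 transcription factor genes tied to lysosomal or macrophage gene expression, 4 were expressed and 0 passed with the offset: Spi1, which encodes PU.1 (-0.45 ± 0.14, adjusted p = 0.0569), Tfe3, a relative of TFEB (-0.41 ± 0.16, adjusted p = 0.0869), Stat3 (-0.31 ± 0.16, adjusted p = 0.162) and Irf8 (0.14 ± 0.26, adjusted p = 0.685). At an unadjusted p under 0.05, in DESeq2 and in limma-voom 1 of the 4, Spi1, was lower. Without the offset 2 of them, Tfe3 and Stat3, were lower. Of all expressed genes, 24.5% were lower in edgeR with the offset and 30.7% without it. Tfeb itself stayed under the limit for expressed genes, at 63.3 and 70.4 scaled CPM in APC-WT and 85.8 and 78.4 in APC-KO.

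Summed over each list, markers of other cells were low beside the macrophage markers. Single genes could be higher: the fibroblast marker Col3a1 had 1015 scaled CPM in APC-WT tumor 1, where the macrophage marker Cd68 had 762. Neutrophils also use Ctsc, and their markers summed to 308 to 333 scaled CPM in APC-WT tumor 1, 555 to 639 in APC-WT tumor 2, 497 to 573 in APC-KO tumor 1 and 263 to 306 in APC-KO tumor 2, with 4 of 10 expressed. In the same order, background alone was expected to give 1.33, 9.54, 67.7 and 68.1. Fibroblasts also make Cst3 and Ctsk, and their markers summed to 1645 to 1800 and 950 to 1074 in APC-WT and to 498 to 593 and 649 to 714 in APC-KO, with 4 of 8 expressed. The expected background was 3.99 and 28.7 in APC-WT and 204 and 205 in APC-KO. Dendritic cell markers (0 of 8 expressed) summed to 23.8 to 73.1 in APC-WT, where the expected background was 2.61 and 18.8. In APC-KO they summed to 254 to 332, where it was 133 and 134. T and NK cell markers (0 of 10 expressed) summed to 27.2 to 58.8 in APC-WT, where 2.01 and 14.4 were expected. Their sums were 146 to 185 in APC-KO tumor 1 and 315 to 341 in APC-KO tumor 2, where 102 and 103 were expected. B cell and mast cell markers summed to at most 141 and 146 in any library. In the APC-KO tumors 82.3 and 82.9 were expected from background for B cell markers, and 70.7 and 71.1 for mast cell markers. Epithelial markers were highest in APC-WT tumor 2 (589 to 632, against 180 to 393 in the other tumors). Background was expected to give 1.52 and 10.9 in APC-WT, and 77.5 and 78.0 in APC-KO. The part of any of these cells in the members' changes was not tested.

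The genes most like each member were found by the root mean square difference of centred log2 scaled CPM over the 24 libraries, where libraries of a tumor share their source. These levels are not adjusted for length, so likeness on them includes the length trend. Ctss and Ctsb lay close to the same gene, Grn, which encodes the lysosomal protein progranulin (0.0467 and 0.0581), and to each other (0.0614), although their length-adjusted changes were -1.31 and -0.19. For Ctsh the nearest genes were B2m (0.0719), Sf3b1 (0.0767) and the member Ctsa (0.0838). Ctsd was nearest to Hsp90b1 (0.0440) and Ctsl to Il1b (0.0595) and the lysosomal sialidase gene Neu1 (0.117). Cst3 was nearest to Ccnd2 (0.0839) and Trem2 (0.0842), a macrophage lipid receptor, and Ctsz to Akap13 (0.0595). Ctsc stood apart from the members: its nearest gene was Xdh (0.0745), and its nearest member, Ctsa, was at 0.615.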

How the data were processed

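The authors deposited raw whole-number counts, 1 row per Ensembl gene ID and 1 column per library. The submitters' processing notes name bcl2fastq (version 2.20.0), HISAT2, StringTie and the genome build mm9; roles, settings, strand and annotation are not given in the sources used here. Symbols, positions and lengths came from GENCODE M21 (GRCm38) by gene ID (55227 of 55487 IDs matched), so coordinates are those of GRCm38.

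All further values were computed here with R 4.3.3 (edgeR 4.0.16, limma 3.58.1, DESeq2 1.42.0) and Python 3.11.15. Left out of the expressed genes were 12 satellite-like loci. These have 0.4 or more of their 15-mers in common with a satellite-like gene or with loci already found this way. They stayed in the count totals used for the 10 CPM limit below. Background per kb of exon came from 1974 olfactory and vomeronasal receptor genes. A gene counted as expressed at 10 CPM or more on average and 10 or more times its background (3941 genes), and scaled CPM takes as library size their total after TMM scaling. For the length offset, the log2 level in a tumor was fitted by loess (span 0.5) on log2 length, taken from the longest transcript. Genotypes were compared by edgeR's quasi-likelihood test on the sums of 2 against 2 tumors, and tumors by the same test on 24 libraries, with Benjamini-Hochberg adjustment at 0.05. Scripts were tested on simulated data. Libraries of a tumor differed by more than sampling noise (chi-square per degree of freedom 6.45 or more), so none was counted as a duplicate.

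The members, lists and tests were chosen with earlier results of these data known. All 10 members are named, with up to 4 genes per list by smallest p and up to 3 most like genes per member. The offset by the best supported coding transcript and the fits of Ctsk were chosen after seeing the data. Counting error is a limit for Ctsk (369 to 848 counts per tumor) more than for the other members (19902 or more). Alternatives were no offset, other lengths, DESeq2, limma-voom, RLE, other filters, background subtraction, replicate blocks and leaving out each tumor.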

Additional observations from a re-analysis of the deposited data

Results flagged for a closer look

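In each of the 10 genes and 4 tumors, the highest and lowest of the 6 libraries were compared with the rest, and a library was picked out when its gap to the nearest other took a share of the range above Dixon's critical value for 6 samples. This happened in 3 of 40 groups, where chance alone gives about 1 in 20. Ctsb in APC-KO tumor 2 read 4936 scaled CPM in library 1, against 4732 to 4808 in the other libraries. Ctsk in APC-WT tumor 2 read 3.12 in library 3, against 2.09 to 2.34 in the others. Ctsz in APC-KO tumor 1 read 1884 in library 3, against 1924 to 1943 in the others. No library was picked out for more than 1 gene.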

How the results depend on the processing

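With the length offset 981 expressed genes were higher and 964 lower in APC-KO, with 0 and 2 members. Without the offset 1 member was higher and 4 lower, and 2 instead of 0 were higher in all 4 pairs. With all genes and TMM over all genes, 0 genes were higher, 0 lower and 0 members lower, while 9 members were lower in all 4 pairs. On the tumor sums this scaling put every member's log2 change between -3.20 (Cst3) and -5.86 (Ctsc). The share of all genes lower in all 4 pairs was not computed for it, so the 9 gives no result about the members. With a limit of 5 CPM and 5 times background 1913 genes were higher, 2107 lower and 6 members lower. With tumor number as a replicate block 599 genes were higher and 547 lower, but members lower stayed at 2; the labels say nothing of a link between tumors of 1 number. Same-numbered libraries of different tumors did not deviate together (mean correlation -0.013 over 36 pairs, 9 above 0.1), and with library number as a replicate block 7 and 5 members were called within APC-WT and APC-KO and 5 in all 4 pairs, as without it. Leaving out each tumor gave 434 to 927 higher genes, 349 to 983 lower genes and 1 to 2 members lower; without APC-KO tumor 1 these were 468, 349 and 1, and without APC-KO tumor 2 they were 434, 363 and 2. The cause was not tested.

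Direction turned for Ctsl (-0.017 without offset, -4.03 over all genes, -0.082 at the lower limit, -0.047 by best supported transcript), Ctsz (0.23) and Cst3 (0.94) without offset, and Ctsa (0.039), Ctsb (0.13) and Ctsd (0.048) with background subtracted. Ctsd was -0.36 to 0.15 when tumors were left out, positive without APC-WT tumor 1. Of 126 alternative values of single members 103 kept direction and call, 10 turned, 9 gained and 4 lost the call. Lost calls were Ctsc (-5.86, adjusted p = 0.231) and Ctss (-4.73, 0.287) over all genes, and Ctss without offset and without APC-KO tumor 1. Depth limits Ctsk.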
